A study of Solenopsis invicta with 4 samples.

Results

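Histone transcripts were followed over 4 temperatures in the fire ant Solenopsis invicta. The data are read counts per assembled contig, a stretch of transcript sequence put together from the reads. Histone contigs were taken from the authors' deposited tables when their nucleotide or pathway hit named histone H2A (LOC105200468), H2B (LOC105193510) or H4 (LOC105193509). They were also taken when the protein hit named a histone H1, H2A, H2B, H3 or H4 and another hit placed the contig in the fire ant. This gave 6 contigs of 6 genes, out of 9001 contigs and 3551 named fire ant genes in the 3 tables. The first 3 genes were picked with their high ratios at 40 °C in view, and the others entered only because a table listed them, so all ratios are given as a description.

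Whole bodies of wild-type adult medium workers were used, each group kept for 24 h at 10, 20, 30 or 40 °C, with 30 °C as the control. All colonies had been held at 25 °C, and each temperature gave 1 library. No value below has a replicate check and no test between temperatures was possible. How many ants made up a library is not given in the sources used here. Whole bodies hold every tissue, and fewer cells of a type cannot be told apart from less RNA per cell.

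Histones are the proteins that DNA is wound around. A pair each of the core histones H2A, H2B, H3 and H4 makes the nucleosome, and the linker histone H1 binds the DNA where it enters and leaves. In animals most core histone genes are transcribed while DNA is copied, and their mRNAs end in a stem-loop and not in a poly(A) tail. Replacement variants such as H3.3 and H2A.V are made outside DNA replication, from mRNAs with a poly(A) tail. The labels' protocols describe cDNA primed with oligo-dT, which pairs with poly(A), and the effect of that priming on histone counts was not tested.

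Counts were divided by the authors' scaled library sizes and given as CPM, reads per 1000000 reads of that size. These sizes ran from 23204029 reads at 20 °C to 43393168 at 40 °C. A single read in these libraries stood for 0.0431 and 0.023 CPM. Scaled sizes are not the reads sequenced. By the FPKM values, total reads at 10, 20 and 40 °C were 79.8%, 94.6% and 79.6% of those at 30 °C. Each deposited table compares 1 temperature with 30 °C and lists only contigs that differ, so a histone contig can be missing from a table. Where it was, its count was solved from the average log2 CPM in the authors' deposited tables, which covers all 4 libraries. Hiding known counts and solving for them returned the deposited number in 302 of 302 contigs at each of 10, 20 and 40 °C. With 2 counts hidden together, 120 of 120 trials returned both. Intervals are exact 95% intervals and cover counting error only.

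By protein class the 6 contigs were not all core histones. There were 1 H2A, 2 H2B and 1 H4 contigs, and the other 2 were linker histones, named histone H1A, sperm-like (LOC105198239) and late histone H1-like (LOC105193508). The deposited protein domain was the core histone fold for H2A and both H2B contigs and the linker histone domain for both H1 contigs. The H4 contig carried the domain of CENP-T, a kinetochore protein with a histone fold, while its nucleotide and UniProt hits both named H4. No H3 contig met the criteria, because the protein hit of the ant H3 contig is an unnamed protein, and that contig is described separately further on.

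The core histone contigs were most abundant at 40 °C, came next at 10 °C and were scarce at 20 and 30 °C. Summed over the 4 contigs, the contigs had 2204 reads at 40 °C and 303 at 10 °C, against 42 at 20 °C and 30 in the 30 °C control. In CPM these sums were 50.8 (48.7 to 53.0) at 40 °C, 10.1 (8.99 to 11.3) at 10 °C, 1.81 (1.30 to 2.45) at 20 °C, and 0.784 (0.529 to 1.12) at 30 °C. No 2 of these intervals overlapped on this scale. On the scale of total reads, which the FPKM columns follow, the sum at 20 °C was 1.16 (0.836 to 1.57) and its interval overlapped that of 30 °C.

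H2A (LOC105200468), which pairs with H2B in the nucleosome, had 100 reads at 10 °C, 16 at 20 °C, 5 in the 30 °C control and 774 at 40 °C. As levels these are 3.33, 0.690, 0.131 and 17.8 CPM. All 4 libraries stood apart in the order 40, 10, 20 and 30 °C, with no counting interval of a neighbouring ratio reaching 1. Of the 6 contigs it alone was listed in all 3 tables. The level at 40 °C was 5.36-fold (4.34 to 6.66) that at 10 °C, and the level at 10 °C was 25.5-fold (10.6 to 80.2) that at 30 °C.

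H2B (LOC105193510) had 44 reads at 10 °C, 1 at 20 °C, 4 in the 30 °C control and 780 at 40 °C, of which the count at 20 °C was solved. Its levels were 1.47, 0.0431, 0.104 and 18.0 CPM. The libraries at 20 and 30 °C could not be distinguished at this depth, since the ratio of 20 to 30 °C was 0.412 with an interval of 0.00837 to 4.17. The share of the summed CPM that fell at 40 °C, 91.8%, was the highest of the 6 contigs. The level at 40 °C was 12.3-fold (9.05 to 17.0) that at 10 °C, a wider gap than for H2A.

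The other H2B gene (LOC105198244) had far fewer reads than LOC105193510 at 40 °C and fewer at 10 °C. At 20 and 30 °C, where both had few reads, it did not have fewer. It had 18 reads at 10 °C, 5 at 20 °C, 7 in the 30 °C control and 63 at 40 °C, with the counts at 10 and 20 °C solved. Its levels were 0.600, 0.215, 0.183 and 1.45 CPM. The highest library was again 40 °C, 7.94-fold (3.64 to 20.5) above 30 °C and 2.42-fold (1.42 to 4.35) above 10 °C, while 20 °C did not separate from 10 or 30 °C by counting error. On the total-read scale 10 and 20 °C did separate, at 4.27-fold (1.53 to 14.7). Genes for the same histone can share reads, so the split between the H2B genes is uncertain.

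H4 (LOC105193509), which pairs with H3 at the centre of the nucleosome, had 141 reads at 10 °C, 20 at 20 °C, 14 in the 30 °C control and 587 at 40 °C, with that at 20 °C solved. These are levels of 4.70, 0.862, 0.366 and 13.5 CPM. The order was the same as for H2A, and no neighbouring interval reached 1. The gap between 20 and 30 °C was narrow, at 2.36-fold (1.13 to 5.04). On the total-read scale that ratio was 1.51 and its interval, 0.725 to 3.23, included 1. The level at 40 °C was 2.88-fold (2.39 to 3.49) that at 10 °C, so heat and cold lay closer together for H4 than for H2A or H2B (LOC105193510), whose intervals lay above.

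**Figure D1:**
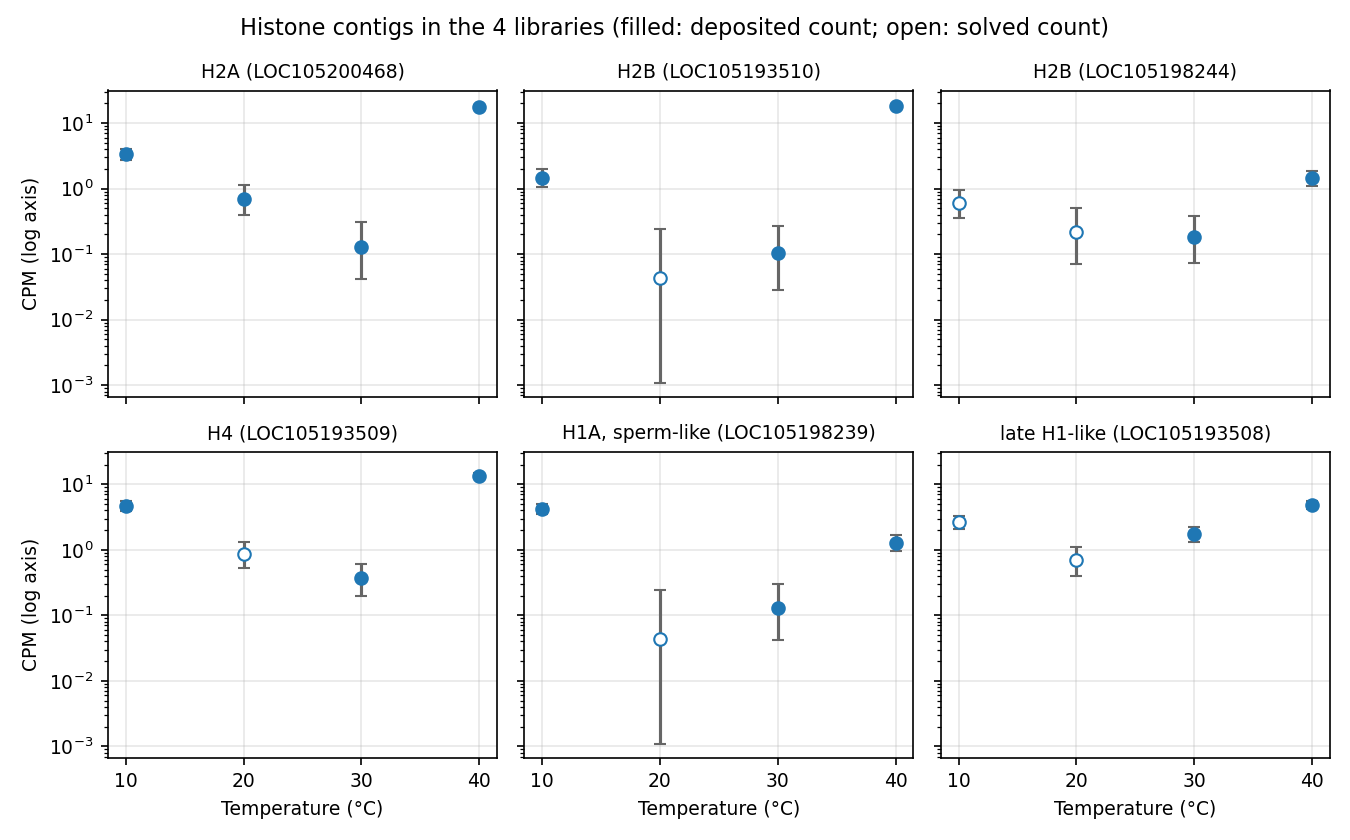
CPM on a log axis against temperature for each of the 6 histone contigs, with 1 library per temperature and bars for exact 95% Poisson intervals of the count. Filled points are deposited counts and open points are solved ones. The 4 core histone panels are highest at 40 °C, and the H1A, sperm-like panel is highest at 10 °C.

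The linker histone contigs differed from each other in order. Histone H1A, sperm-like (LOC105198239) had 127 reads at 10 °C, 1 at 20 °C, 5 in the 30 °C control and 56 at 40 °C, with that at 20 °C solved. Its levels were 4.23, 0.0431, 0.131 and 1.29 CPM, and of the 6 contigs it alone was highest at 10 °C. The level at 10 °C was 3.28-fold (2.38 to 4.57) that at 40 °C, where each core contig had the opposite order. It was 32.4-fold (13.5 to 101) above 30 °C at 10 °C and 9.88-fold (3.99 to 31.6) above it at 40 °C.

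The late histone H1-like contig (LOC105193508) was spread most evenly, with 49.2% of its summed CPM at 40 °C. It had 79 reads at 10 °C, 16 at 20 °C, 66 in the 30 °C control and 212 at 40 °C, with the first 2 counts solved. Its levels were 2.63, 0.690, 1.72 and 4.89 CPM, and its order of 40, 10, 30 and 20 °C was that of H2B (LOC105193510). The ratio of 40 to 30 °C was 2.83 (2.14 to 3.79), the smallest among the 6 contigs and the nearest to the limit of the tables, whose smallest absolute fold change is 2.35 in the authors' deposited table at 40 °C. The tables do not select by fold alone, since this contig was not listed at 20 °C, where it was 2.50-fold (1.43 to 4.63) lower than at 30 °C. Contigs outside a table also included the other H2B at 10 °C, 3.28-fold (1.31 to 9.29) higher. At 20 °C H2B (LOC105193510) and H1A, sperm-like were outside too, 2.42-fold and 3.03-fold lower with 1 read each. H4 was also outside at 20 °C, with the ratio above, which lay at the smallest absolute fold change listed there, 2.36. At 10 °C the late H1-like contig was 1.53-fold (1.09 to 2.15) higher than at 30 °C.

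Ratios of reads between contigs in the same library do not depend on the library size. At 10 °C there were 0.901 H1A reads per H4 read (0.703 to 1.15), and at 40 °C 0.0954 (0.0712 to 0.126). The late H1 contig had 4.71 reads per H4 read (2.62 to 9.09) at 30 °C against 0.560 (0.420 to 0.743) at 10 °C and 0.361 (0.307 to 0.423) at 40 °C. At 20 °C, where core histone reads were also few, it had 0.800 reads per H4 read (0.388 to 1.62). The late H1-like contig held 66 of the 71 linker reads at 30 °C, where core histone reads were fewest, and 16 of the 17 at 20 °C.

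H2B (LOC105193510) and H2A also changed against each other. There were 1.01 H2B reads per H2A read (0.911 to 1.11) at 40 °C, 0.440 (0.301 to 0.633) at 10 °C and 0.0625 (0.00149 to 0.402) at 20 °C. H4 gave 0.758 reads per H2A read (0.680 to 0.845) at 40 °C and 1.41 (1.08 to 1.84) at 10 °C. With 5 H2A reads at 30 °C, the ratios there had wide intervals.

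**Figure D2:**
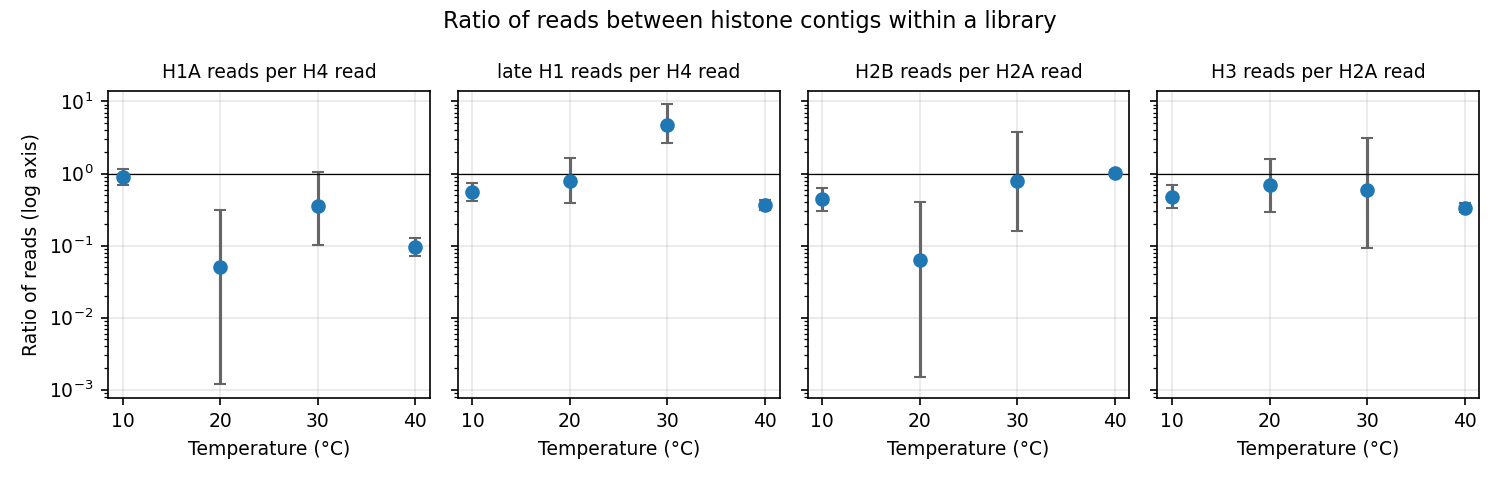
Ratio of reads between pairs of histone contigs within each library, on a log axis against temperature, with exact 95% binomial intervals from 1 library per temperature. H1A per H4 read was 0.901 at 10 °C and 0.0954 at 40 °C, and the H2B of the plot is LOC105193510.

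Levels of different genes can be compared only per length, for which the authors' FPKM values (reads scaled to contig length and total reads) serve. At 40 °C H2B (LOC105193510) stood at 57.93 FPKM, H4 at 37.66, H2A at 25.88, the other H2B at 4.15, late histone H1-like at 3.83 and H1A, sperm-like at 2.10 FPKM. At 10 °C, where 4 of them were listed, H4 stood at 8.95, H1A, sperm-like at 4.73, H2A at 3.33 and H2B (LOC105193510) at 3.23 FPKM. Thus H1A, sperm-like was the lowest of the 6 in heat and the second of the 4 listed in cold. At 30 °C the late H1-like contig was the highest of the 6, at 0.95 FPKM, and H2A the lowest, at 0.13. By its reads per FPKM the H2A contig is 1.92 times as long as the H4 contig.

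At 40 °C all 6 contigs were listed and all 6 were higher than at 30 °C, where 46.7% of the 4067 listed contigs were higher and 53.3% lower. At 10 °C 4 contigs were listed and all 4 were higher, where 56.5% of 4596 were higher and 43.5% lower. At 20 °C only H2A was listed, and it was higher, where 52.4% of 2953 were higher and 47.6% lower. Among ant contigs alone 56.6% were higher at 40 °C and 54.8% at 10 °C, with 52.0% at 20 °C. The contigs were chosen in part on these ratios, so nothing is read from the counts. With a pseudocount of 1 CPM the median log2 ratio of the listed histone contigs was 2.26 at 40 °C and 1.999 at 10 °C, against -0.38 and 0.47 over all listed contigs. A mean of at least 1 CPM over both libraries was reached by 4 of the 6 at 40 °C and by 3 of the 4 at 10 °C. Each of these was at least 2-fold higher, as were 40.1% of all contigs above that level at 40 °C and 36.2% at 10 °C. At 30 °C H2A stood at 0.131 CPM, H2B (LOC105193510) at 0.104, H4 at 0.366 and H1A, sperm-like at 0.131. Such contigs reach that mean only through the hot or cold library, so the filter nearly sets their 2-fold call and nothing is read from it. Of the 4 at 40 °C and the 3 at 10 °C that reached that mean, none was at least 2-fold lower. Of all contigs above that level 43.4% and 47.0% were, and for the same reason nothing is read from this. H2A at 20 °C did not reach that level, where 31.4% of contigs passed the 2-fold limit upwards and 48.3% downwards. On the total-read scale the split of higher and lower was 49.7% and 19.8% at 40 °C and 10.9% and 63.8% at 20 °C.

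By fold, H2B (LOC105193510) ranked 1 and H2A ranked 2 among the 4067 contigs of the table at 40 °C, and H4 ranked 21. By log2 ratio with a pseudocount of 1 CPM these ranks were 5, 6 and 10. At 10 °C the ranks by fold were 111 for H1A, sperm-like, 170 for H2A, 436 for H2B and 504 for H4, out of 4596. By log2 ratio they were 93, 141, 704 and 114 in the same sequence of genes, so the place of H4 and H2B depends on the pseudocount. The ranks describe ratios that were known when the genes were chosen.

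**Figure D3:**
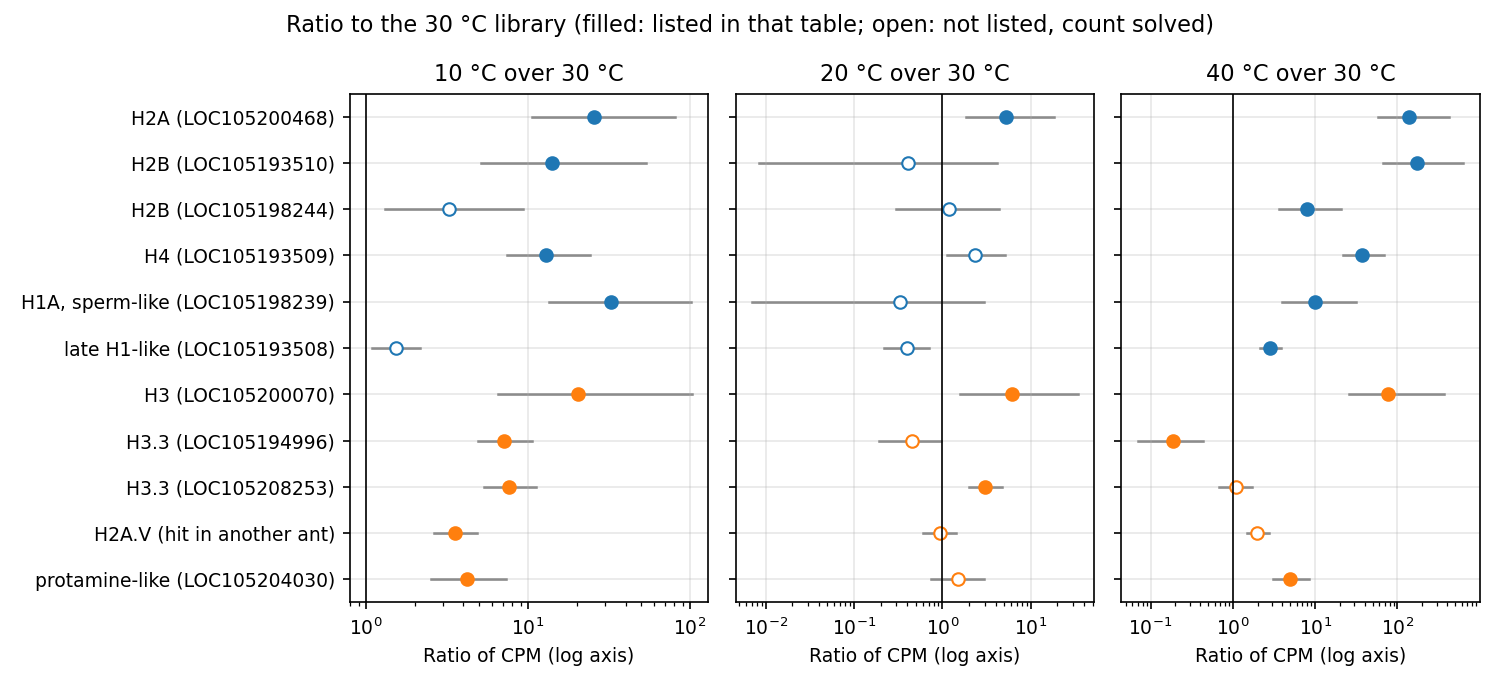
Ratio of CPM to the 30 °C library on log axes for the 6 histone contigs (blue) and 5 further contigs found by nucleotide hit (orange), with exact 95% binomial intervals, 1 library per temperature. Filled points are contigs that the table for that temperature lists and open points are solved counts. At 40 °C H2A stands at 137-fold (58.3 to 422) and H2B (LOC105193510) at 172-fold (66.9 to 633). These folds rest on 5 and 4 reads at 30 °C. H3.3 (LOC105194996) stands below 1 at 40 °C.

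The remaining core histone, H3, is in the tables under a nucleotide hit. This contig and 4 others with a hit to a histone variant or a related protein were chosen after their values were seen. H3 (LOC105200070), the partner of H4, had 48 reads at 10 °C, 11 at 20 °C, 3 in the 30 °C control and 259 at 40 °C, all of them deposited. Its levels were 1.60, 0.474, 0.0784 and 5.97 CPM, in the same order as H2A and H4 and with no neighbouring interval reaching 1. The level at 40 °C was 3.73-fold (2.74 to 5.19) that at 10 °C. H3 gave 0.335 reads per H2A read (0.290 to 0.386) at 40 °C and 0.480 (0.333 to 0.684) at 10 °C.

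The replacement variants were highest at 10 °C. H3.3 (LOC105194996), which takes the place of H3 outside DNA replication, had 184 reads at 10 °C, 9 at 20 °C (solved), 33 in the 30 °C control and 7 at 40 °C. It was 38.0-fold (18.1 to 95.8) lower at 40 °C than at 10 °C and 5.34-fold (2.32 to 14.3) lower than at 30 °C. An H3.3-like contig (LOC105208253) had 216 reads at 10 °C, 66 at 20 °C, 36 in the 30 °C control and 44 at 40 °C (solved). Its ratio of 40 to 30 °C, 1.08 (0.678 to 1.72), did not separate the libraries, while the level at 10 °C was 7.65-fold (5.36 to 11.2) that at 30 °C. Both H3.3 contigs thus had the reverse order of H3 between 10 and 40 °C. The contig of LOC105194996 carried no protein domain and no UniProt hit, so its name rests on the nucleotide hit. As for H2B, the split of reads between the H3.3 genes is uncertain.

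A contig of H2A.V, an H2A variant known in Drosophila from active genes and DNA repair, had its hit in the ant Camponotus floridanus. This contig carried no protein domain and no UniProt hit. It had 173 reads at 10 °C, 35 at 20 °C, 62 in the 30 °C control and 140 at 40 °C, with those at 20 and 40 °C solved. Its level at 10 °C was 1.79-fold (1.42 to 2.25) that at 40 °C, and on the total-read scale the ratio of 40 to 10 °C was 0.811 with an interval, 0.644 to 1.02, that included 1. A protamine-like protein (LOC105204030), with a linker histone domain, had 66 reads at 10 °C, 18 at 20 °C (solved), 20 in the 30 °C control and 113 at 40 °C. The ratio of 40 to 10 °C was 1.18 (0.867 to 1.63), and 1.72 (1.26 to 2.36) on the total-read scale, so whether the libraries separate depends on the scale.

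**Figure D4:**
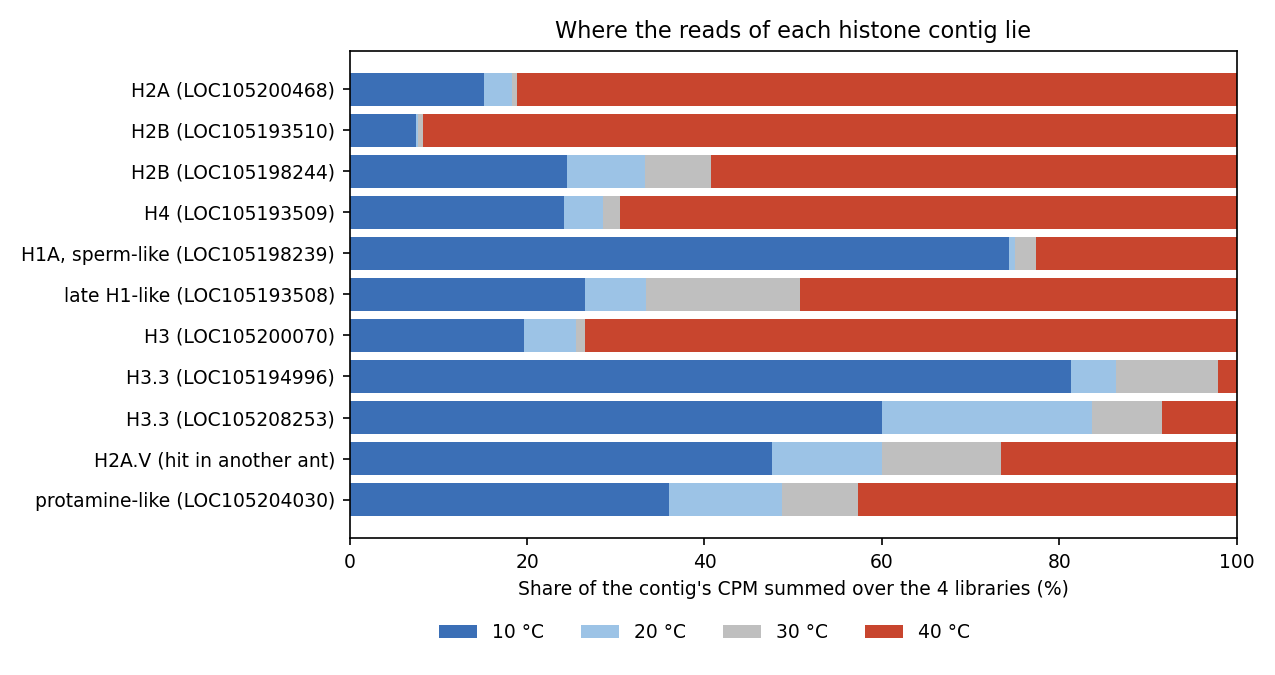
Share of each contig's CPM, summed over the 4 libraries, that fell at each temperature, with 1 library per temperature. The share at 40 °C is 91.8% for H2B (LOC105193510) and 2.14% for H3.3 (LOC105194996), and 10 °C holds 74.3% of H1A, sperm-like.

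In the annotation of assembly UNIL_Sinv_3.0 the H4 gene (LOC105193509) and the H2B gene (LOC105193510) are direct neighbours, with no gene between them. The other H2B gene (LOC105198244), H1A, sperm-like (LOC105198239) and H3 (LOC105200070) lie on the same chromosome, with 8 genes between that H2B and H1A and 9 between H1A and H3. H2A (LOC105200468) and both H3.3 genes lie on other chromosomes than these. Thus H1A, sperm-like, highest at 10 °C, lies between an H2B and an H3 gene that were highest at 40 °C. Of 42 genes within 3 places of a histone gene, 6 were listed in any table (14.3%), as were 18.5% of the 16825 genes of the annotation. They went both ways. Within 3 places of the H2B gene (LOC105193510), a contig of LOC105193506 had 20 reads at 10 °C against 6 at 30 °C. A further contig of that gene had 678 reads at 20 °C against 415 at 30 °C. The exchanger Nckx30C (LOC105198248), near the other H2B gene, had 134 reads at 10 °C against 57. Lower were a takeout-like contig (LOC105199218) near an H3.3 gene, with 506 reads at 10 °C and 279 at 20 °C against 1889, and LOC105200519 near H2A, with 40 reads at 10 °C against 217. Contigs of LOC105195027 at 10 °C and LOC105199216 at 40 °C, both near H3.3 genes, were lower too, with 2 reads each against 22 and 33.

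Of factors that process histone mRNA, only a cleavage and polyadenylation specificity factor subunit 2 contig (LOC105203668) was listed, at 40 °C, with 2 reads against 12 at 30 °C. Of the histone chaperones, which carry histones to DNA, only HIRA (LOC105198279), a chaperone of H3.3, was listed. It had 56 reads at 40 °C against 203 at 30 °C and was 4.11-fold (3.04 to 5.63) lower. Neither list had a contig in the tables at 10 or 20 °C, which does not show that those genes were equal. The list of variant and linker histones, matched by protein name, held no ant contig beyond the linker contigs already given.

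Genes of DNA replication were listed in both directions. At 40 °C 2 of 7 listed ant contigs were higher and 5 lower, where 56.6% of all listed ant contigs were higher. Their median log2 ratio was -0.54. The -0.38 over all listed contigs covers every organism, and with contigs of every organism the median of this list was -1.11. The helicase subunit Mcm2 (LOC105202674) had 62 reads against 162 at 30 °C. A ribonucleoside-diphosphate reductase large subunit (LOC105206654), which makes DNA precursors, had 161 against 397. DNA ligase 1-like (LOC105196801), which joins new DNA strands, went the other way with 143 reads against 34.

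At 10 °C 2 of 5 replication contigs were higher and 3 lower, where 54.8% of listed ant contigs were higher. Replication factor C subunit 4 (LOC105194365), which loads the sliding clamp, had 512 reads against 264, and the DNA primase small subunit (LOC105194965) had 40 against 148. At 20 °C 2 of 3 were higher, beside 52.0% of ant contigs. The only listed regulator of S phase or mitosis, a contig named E2F2-like (LOC105203774), had 396 reads at 40 °C against 141 at 30 °C and was 2.48-fold (2.04 to 3.02) higher. E2F proteins regulate genes for DNA replication. That list had no ant contig at 10 or 20 °C.

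Enzymes that modify histones went both ways. At 40 °C 5 of 8 ant contigs were higher, near the 56.6% of all listed ant contigs. Sirtuin-7 (LOC105194499), a deacetylase, was at 340 reads against 76, and the H3 lysine-79 methyltransferase (LOC105202538) was at 254 against 84. The SMYD3-like methyltransferase (LOC105198538) was lower, at 48 against 124. At 10 °C 4 of 5 were higher, beside 54.8% of ant contigs, and SAP30 (LOC105194066), a subunit of a deacetylase complex, was at 208 reads against 81. The higher contigs at 10 °C included SETMAR-like ones, whose name comes from a gene fused to a transposase. Among these were LOC105200558 with 45 reads against 15 and LOC105206723 with 40 against 3. At 20 °C 3 of 4 were higher, beside 52.0% of ant contigs, and the 2D methyltransferase (LOC105201047) was lower, at 125 reads against 520.

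Few markers of other cell types were listed, and their counts cannot be told from the share over all ant contigs. At 40 °C, where 56.6% of listed ant contigs were higher, all 3 of the ovary and germline list were. Their summed level was 26.3 CPM at 40 °C against 8.83 at 30 °C. They were piwi-like protein 1 (LOC105202009) with 962 reads against 297, vasa (LOC105193214) with 98 against 15 and a maternal tudor-like contig (LOC105207983) with 82 against 26. The only listed haemocyte marker, lozenge (LOC105196760), was at 6.75 CPM at 40 °C against 2.19 at 30 °C, and none was listed at 10 or 20 °C. At 10 °C, beside 54.8% of ant contigs, 2 of 5 germline contigs were higher and 3 lower, with summed levels of 9.89 CPM against 21.7 at 30 °C, and at 20 °C 1 of 1 was lower. No contig in the tables has 0 reads in a library, so markers that were absent are not seen. The part of these cells in the histone levels was not tested.

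The 5 genes outside the histone contigs whose listed log2 ratios lay nearest to those of each histone contig were looked up. The histone contigs themselves were not candidates, nor was H3, whose protein hit is unnamed. A histone can thus lie nearer than the genes given here. At 10 and 40 °C the log2 ratios were 1.94 and 4.06 for H2A and 1.16 and 4.10 for H2B (LOC105193510). With a pseudocount of 1 CPM, over the 3 ratios of H2A and 49 named ant contigs, the nearest contigs were major royal jelly protein 1-like (LOC105194918) at a Euclidean distance of 1.82 and venom allergen 2-like (LOC105193473) at 1.86. For H4, over 2 ratios and 150 contigs, the transporter MRP4-like (LOC105201723) lay at 0.272. It had 1196, 396, 414 and 5334 reads at 10, 20, 30 and 40 °C. A DEAD-box ATP-dependent RNA helicase 20-like contig (LOC105202237) followed at 0.907, with 59, 17, 11 and 440 reads. The same transporter at 0.951 and helicase at 0.990 were the nearest candidates to H2B (LOC105193510), and H2A, not a candidate, lay nearer by the ratios above.

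For H1A, sperm-like, the nearest of 150 contigs was a larval cuticle protein A2B-like contig (LOC105207475) at 0.0896, with 544, 120, 126 and 353 reads. Sarcoplasmic calcium-binding protein 1 (LOC105201185) lay at 0.390 and a UDP-glucuronosyltransferase 3A1-like contig (LOC105200780) at 0.405. The other H2B and the late H1-like contig were listed at 40 °C alone, so that likeness rests on 1 ratio. For late H1-like the nearest of 757 contigs were solute carrier family 25 member 51 (LOC105200556) at 0.000572, the E2F2-like contig (LOC105203774) at 0.00103 and a G(q) alpha subunit contig (LOC105197512) at 0.00128. For the other H2B gene (LOC105198244) a polycomb protein Asx contig (LOC105195392) had the same reads, at a distance of 0. These ratios share the 30 °C library, and none of the likenesses has a replicate check.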

How the data were processed

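RNA of whole workers was sequenced in 4 libraries, 1 per temperature, grouped by the labels. The submitters' processing notes name RSEM, Bowtie 1.1.2, Trimmomatic 0.38 and FastQC 0.11.7. The assembler and genome build are not given in the sources used here. Per the file headers, the 3 deposited tables hold estimated counts, FPKM values, log2 normalized values, and a signed fold change (a score below 0 where lower), mean log2 CPM and p-values of the authors' comparison. The deposited estimated counts were whole numbers and were not rounded. The deposited log2 values are log2 of CPM plus 1 on scaled library sizes, which set all CPM here. The authors' p-values rest on no replicate and are not used. Of the table at 40 °C, 1 line was not analysed here.

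The authors' average log2 CPM equals edgeR 4.0.16 aveLogCPM over all 4 libraries (prior count 2, dispersion 0.05) within 1.09e-09 in 302 contigs. Missing counts were the whole numbers that gave it within 5e-09, with the next best at least 1000 times worse. This was added after the data were seen. Ratios have Clopper-Pearson 95% intervals, and single counts and their sums exact Poisson ones. Tested on simulated Poisson counts, intervals held a true fold of 4 in 98.5% of changed contigs in the setting of 4596 contigs at 10 °C, 96.0% of those at 20 °C (2953 contigs) and 97.0% of those at 40 °C (4067 contigs). Exact intervals hold their level on such counts by construction, so this bears on the code and not on spread between ants or libraries. Without molecular identifiers, reads are not independent molecules. Log2 ratios carry a pseudocount of 1 CPM. Lists were matched by protein name among ant contigs. The members, the 8 lists and the rules were chosen with earlier results of these data known. All 6 histone contigs are named, and of each list up to 4 contigs with the most reads, given in part. Likeness was computed among named ant contigs with at least 50 reads in a library, leaving out the 6 histone contigs. Gene neighbours come from assembly UNIL_Sinv_3.0, which matched 8 of the 10 ant histone genes, and coordinates are left out since the files name no build. Alternatives were pseudocounts of 0.1 and 5 CPM, no filter or 10 CPM, a 4-fold limit, FPKM scaling, contigs per gene and other organisms' contigs. Software was R 4.3.3 and Python 3.11.15 with matplotlib 3.10.9, SciPy 1.17.1, numpy 2.4.6 and pandas 2.3.3.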

Additional observations from a re-analysis of the deposited data

How the results depend on the processing

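No paired analysis was possible because each temperature has 1 library. A pseudocount cannot turn the sign of a ratio, so the alternatives bear on its size. At 40 °C the log2 ratio was 4.10 for H2B (LOC105193510), 4.06 for H2A and 3.41 for H4 with a pseudocount of 1 CPM. With 0.1 CPM these were 6.47, 6.28 and 4.87, with 5 CPM 2.17, 2.15 and 1.79, and with FPKM scaling 4.59, 4.54 and 3.89. The pseudocount sets the size because the 30 °C counts are 4, 5 and 14 reads. FPKM scaling moves log2 ratios by 0.51 at 40 °C, -0.64 at 20 °C and -0.02 at 10 °C. On it the other H2B gene at 20 °C turns from 1.18 to 0.755 times the level at 30 °C, and the protamine-like contig from 1.48 to 0.951, both with intervals that reach 1. The 3 and 4 contigs at least 2-fold higher at 10 and 40 °C become 0 and 0 with a 10 CPM minimum. With a minimum of 1 CPM, 36.2% and 40.1% of all contigs were, and the share at 10 CPM is not given here. With the contigs found by nucleotide hit, chosen after their values were seen, the 3 and 4 become 7 and 6. The filter nearly sets most of these calls, so nothing is read from the counts. Summing the contigs of a gene and keeping 1 contig per gene changed nothing, since each gene has 1 contig. Libraries with 1 to 7 reads at 20 or 30 °C limit every fold against them.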

Other observations

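Histone contigs with best hits in fungi were also listed, 3 in number, and were not counted with those of the ant. A contig with a Fusarium H2B hit had 32 reads at 10 °C (solved), 5 at 20 °C, 41 in the 30 °C control and 1 at 40 °C. An H3 contig had 61 (solved), 5, 50 and 1 reads in the same order, and an H4 contig 39 (solved), 2, 31 and 1. Summed over the 3 contigs the levels were 4.40 CPM (3.68 to 5.21) at 10 °C, 0.517 (0.267 to 0.903) at 20 °C, 3.19 (2.65 to 3.81) at 30 °C and 0.0691 (0.0143 to 0.202) at 40 °C. These are lowest at 40 °C, where the ant core histones were highest, and a best hit need not be the origin of a contig.

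Among 2313 contigs listed in at least 2 tables, whose 4 counts are all deposited or solved, 119 (5.14%) had the order 40, 10, 20 and 30 °C of H2A, H3 and H4. In that set 451 (19.5%) were highest at 40 °C and 699 (30.2%) at 10 °C. The set was selected for differences from the shared 30 °C library, so these shares describe it only.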
